A study of Mus musculus with 2 samples.

Results

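Kcna4, Tmem132c and Rbfox3 are 3 of the 21755 protein-coding genes annotated on the mouse chromosomes analysed, and they were chosen by the ratio of aged to young accessibility, since peaks in or near them had some of the highest ratios in an earlier analysis of the same libraries. The ratios between ages given for them are therefore a description, and no test was made on them. Open chromatin was measured by single-cell ATAC-seq, in which a transposase cuts accessible DNA and each cut fragment carries the barcode of its nucleus. Hematopoietic stem cells (HSCs) of C57BL/6 mice, for which the labels give no genetic change or treatment, were profiled in 2 libraries. The young library came from animals aged 10 weeks and the aged library from animals aged 20 months. The study's methods describe female mice, and the labels describe the sort as IL-7-, lineage-, Sca-1+, c-kit+, CD34-, CD150+, CD48- and Flt3-. Each age has a single library, and the number of animals behind it is not given in the sources used here, so no difference could be set against the spread between animals, and every interval given is a 95% interval that covers counting error only.

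Barcodes called as cells with 3000 to 20000 in-peak fragments in the authors' table were kept, which gave 4887 young cells with 50069575 unique fragments and 3405 aged cells with 38663214 unique fragments. The median was 9890 fragments per young cell and 11020 per aged cell. The libraries shared 26 kept barcodes, and without these the log2 ratios of the gain elements described here were 6.33, 4.65 and 4.09. Values are in FPM, the fragments in a region per 1000000 fragments that fell in peaks called over both libraries. Young cells had 34674599 such in-peak fragments and aged cells 26166936. Promoters of 12 HSC marker genes all held fragments in both libraries, with a summed level of 283 FPM in young and 283 FPM in aged HSCs, a range over genes of 0.519 to 51.2 FPM in young and 0.535 to 50.7 FPM in aged HSCs, and none at 0. Promoters of 14 neuronal marker genes summed to 104 FPM in young and 121 FPM in aged HSCs, with a range of 1.12 to 17.1 FPM and 1.15 to 21.1 FPM and none at 0. Of those 14, 1 lay at or above 2-fold in aged HSCs, beside 2.09% of all tested promoters. It was Syt1, which encodes a calcium sensor of synaptic vesicles (118 young and 316 aged fragments). Its promoter alone went from 3.40 to 12.1 FPM, a large part of the difference between the sums. The lowest ratio of the list was that of Camk2a, which encodes a subunit of a calcium-dependent kinase of synapses (87 and 39 fragments, -0.73, -1.34 to -0.19). Summed marker promoters of other lineages went from 142 FPM in young to 129 FPM in aged HSCs for megakaryocytes, 48.8 to 46.4 for erythroid cells, 17.6 to 15.9 for granulocytes and monocytes, 21.3 to 22.5 for B cells and 9.69 to 6.69 for T cells.

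In GENCODE M21, Kcna4 (ENSMUSG00000042604.5) lies at chr2:107290639-107298502 on the plus strand, Tmem132c (ENSMUSG00000034324.16) at chr5:127241808-127565793 on the plus strand, and Rbfox3 (ENSMUSG00000025576.17) at chr11:118489762-118911597 on the minus strand. All 3 are best known from neurons. Kcna4 encodes Kv1.4, an alpha subunit of the Shaker-type voltage-gated potassium channels that opens on depolarisation and inactivates quickly. Tmem132c encodes a single-pass membrane protein of the TMEM132 family, whose role is poorly known. Rbfox3 encodes NeuN, a nuclear RNA-binding protein that regulates splicing and serves as a marker of mature neurons. In chromatin of other lineages such genes are commonly kept closed, and a regulatory element that opens can lie far from the promoter of the gene it is named for.

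For each gene the peak with the highest ratio of aged to young among the peaks in its body or within 150000 bp of it was taken as the gain element, given at least 200 fragments over both libraries. The sequences of the Kcna4 and Tmem132c elements are shown because the highest ratios of their loci lay there. Each line gives 300 bases of GRCm38 (mm10) around the middle of the peak, on the plus strand, with matches to the motifs searched in capitals. The Kcna4 window holds the summit of its peak, at chr2:107231891, to the right of the middle. Part of the aged signal lay past the right end of this window and was not searched.
Kcna4 element, chr2:107231669-107231968: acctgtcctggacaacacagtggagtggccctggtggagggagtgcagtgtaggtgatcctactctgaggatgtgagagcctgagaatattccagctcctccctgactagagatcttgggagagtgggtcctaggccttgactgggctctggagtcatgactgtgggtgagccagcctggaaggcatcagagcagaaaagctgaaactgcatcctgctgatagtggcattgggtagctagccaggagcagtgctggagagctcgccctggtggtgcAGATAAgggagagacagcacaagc
Tmem132c element, chr5:127537547-127537846: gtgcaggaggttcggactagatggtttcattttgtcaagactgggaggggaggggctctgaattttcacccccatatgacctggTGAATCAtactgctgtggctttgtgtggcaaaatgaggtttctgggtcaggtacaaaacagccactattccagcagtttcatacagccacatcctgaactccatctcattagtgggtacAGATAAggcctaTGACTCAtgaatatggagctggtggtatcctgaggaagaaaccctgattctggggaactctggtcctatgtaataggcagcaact

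Short consensus motifs of transcription factors of blood and neurons were searched on both strands, and the share of windows of the same length at all 166217 peaks that held each is given as background. The Tmem132c window held 2 matches to the AP-1 consensus TGANTCA. At least 1 such match was in 12.2% of peaks, and the share with 2 was not counted. It also held 1 match to the GATA consensus AGATAA, found in 13.8% of peaks, and the Kcna4 window held 1 too. None of these matches overlapped another.

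The other motifs had no match in either window. The RUNX consensus TGTGGTT was in 11.9% of peaks. Among factors of blood cells, the ETS consensus GAGGAAGT was in 7.84% of peaks and the STAT consensus TTCNNNGAA in 9.16%. The C/EBP consensus TTGCNNAA was held by 12.2% of peaks and the MEIS consensus TGACAG by 20.7%. For the forkhead (FOX) consensus TGTTTAC the share was 4.08%, and for the E-box CAGCTG it was 18.3%. The cyclic AMP response element TGACGTCA was rare, at 0.573%, and so was TTCAGCACC, a part of the site of the neuronal repressor REST, at 0.558%. The CTCF core AGGGGGC was in 8.08%.

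The windows had 56.3% GC at Kcna4 and 47.7% at Tmem132c, at percentiles 82.1 and 43.6 of all peaks. They held 1 CpG dinucleotide each, whereas the RefSeq promoter windows of the same genes, of the same length, held 20 and 29. The Tmem132c element had no similar stretch elsewhere in the genome by BLAST. The Kcna4 element was of another kind, since 99.5% of its length was covered by 2293 other stretches of at least 100 bases, though at no more than 82.0% identity (over 217 bases). Of the 75 peaks with at least 20 fragments that lay on those stretches, 5 (6.67%) were at or above 2-fold in aged HSCs and their median log2 ratio was -0.037, beside 7.96% of all peaks.

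The Kcna4 element (chr2:107231511-107232126, 616 bp) lies outside the body of Kcna4, upstream of the gene at -58820 bp from its 5' end. Overlap with other genes was not checked. The element held 6 fragments in young and 424 in aged HSCs, or 0.173 and 16.2 FPM. The region was close to empty in the young library. With a pseudocount of 1 fragment the log2 ratio was 6.33 (5.42 to 8.0).

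The Tmem132c element (chr5:127537419-127537975, 557 bp) lies in intron 5 of 8 of a coding transcript, 295889 bp downstream of the 5' end of the gene. It is also just upstream, at -563 bp, of the start of a processed transcript without a coding sequence, Tmem132c-202. Fragments numbered 19 in young and 378 in aged HSCs, or 0.548 and 14.4 FPM, for a log2 ratio of 4.65 (4.06 to 5.47).

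The Rbfox3 element (chr11:118603868-118604630, 763 bp) lies in intron 4 of 14 of a coding transcript, 307348 bp downstream of the annotated 5' end of the gene on the minus strand. It held 41 fragments in young and 541 in aged HSCs, or 1.18 and 20.7 FPM, for a log2 ratio of 4.10 (3.67 to 4.62). It started from the highest young level of the 3 elements and reached the highest aged level. The ratios ranked 1 for Kcna4, 2 for Tmem132c and 5 for Rbfox3 among the 66711 peaks with at least 200 fragments. The peaks between and just below them were similar in size, with 22 and 369 fragments at rank 3 (log2 ratio 4.41), 13 and 211 at rank 4 (4.33), and 23 and 293 at rank 6 (4.02). With fewer fragments required the ranks were lower, at 2, 11 and 21 among peaks with at least 100 fragments.

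**Figure D1:**
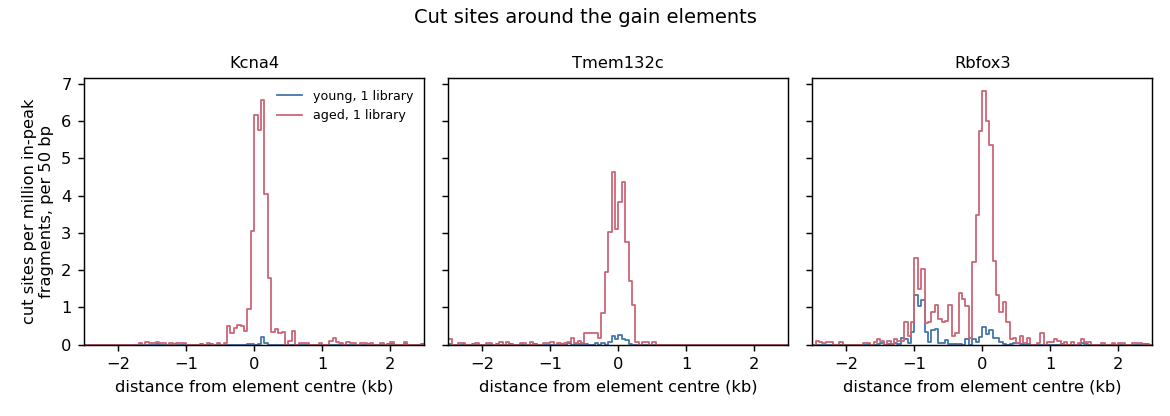
Cut sites per 1000000 in-peak fragments in steps of 50 bp, within 2.5 kb of the centre of each gain element, for the young library (blue) and the aged library (red), without replicates. In the aged library the signal at each element stands over a narrow stretch around the centre, with a shallow dip near the centre at Tmem132c. A second peak to the left of the Rbfox3 element is present at both ages. It is lower than the element in the aged library and higher than the element in the young library.

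The gain at each element was narrow. The width of the aged minus young difference in smoothed cut sites, at 0.5 of its height, was 230 bp at Kcna4, 338 bp at Tmem132c and 250 bp at Rbfox3. Fragments too short to span a nucleosome made up 81.8% (77.8 to 85.4%) of aged fragments at the Kcna4 element, 81.7% (77.5 to 85.5%) at the Tmem132c element and 72.3% (68.3 to 76.0%) at the Rbfox3 element. Over all peaks of the aged library the share was 64.5%, below all of these intervals. In young HSCs the few fragments gave wide intervals, for instance 63.4% (46.9 to 77.9%) of 41 fragments at Rbfox3.

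At the promoter, taken as 1000 bp on either side of the annotated 5' end, the 3 genes differed. Kcna4 had 170 fragments in young and 314 in aged HSCs, or 4.90 and 12.0 FPM, a log2 ratio of 1.29 (1.02 to 1.57). Tmem132c had 284 and 341 fragments, or 8.19 and 13.0 FPM, a log2 ratio of 0.67 (0.44 to 0.90). At Rbfox3 there were 55 and 56 fragments, or 1.59 and 2.14 FPM, and the log2 ratio of 0.43 had an interval that included 0 (-0.13 to 1.0). That call rests on the window, since with 500 bp on either side the ratio was 0.65 (0.037 to 1.29), with 5 kb it was 0.27 (0.038 to 0.50), and over all annotated starts 0.22 (0.042 to 0.39). Of the 17711 promoters with at least 20 fragments, 2.09% lay at or above 2-fold in aged HSCs and 0.678% at or below one part in 2, with a median log2 ratio of -0.053. Kcna4 alone of the 3 passed 2-fold at its promoter, but after thinning every cell to 3000 in-peak fragments its ratio was 0.85 (0.42 to 1.29), under that limit. Its percentile among tested promoters was 98.9, against 95.5 for Tmem132c and 92.1 for Rbfox3.

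Over the gene bodies Kcna4 again had the highest ratio. The order of Tmem132c and Rbfox3 was within counting error, and it turned when the element was left out. The body of Kcna4, 7864 bp long, had 111 young and 209 aged fragments, or 3.2 and 7.99 FPM, a log2 ratio of 1.31 (0.98 to 1.66). The long body of Tmem132c had 2866 and 2976 fragments, or 82.7 and 114 FPM, a ratio of 0.46 (0.39 to 0.53), and that of Rbfox3 had 7102 and 7242 fragments, or 205 and 277 FPM, a ratio of 0.43 (0.39 to 0.48). Without the element these became 0.27 (0.20 to 0.35) for Tmem132c and 0.33 (0.28 to 0.38) for Rbfox3, so the element held part of the difference over the body and not all of it. Of the 19592 gene bodies tested, 1.36% lay at or above 2-fold and 0.204% at or below one part in 2, with a median log2 ratio of -0.017. Kcna4 was past 2-fold over its body and the other two were not.

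**Figure D2:**
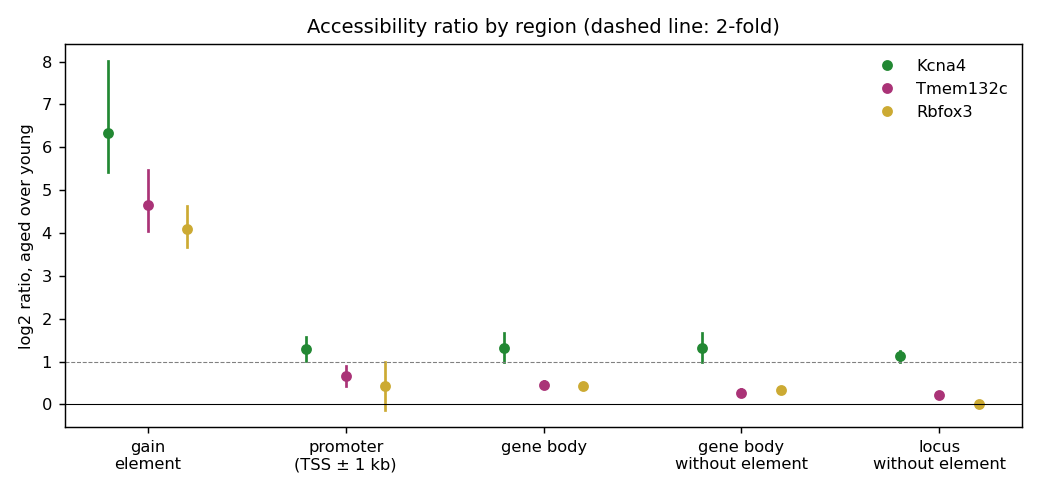
Log2 ratio of aged over young accessibility for the gain element, the promoter, the gene body, and the body and the whole locus (gene body with 150 kb on either side) without the element. Points are the ratios of 1 library per age and bars are 95% counting intervals. The elements lie at 4.10 to 6.33, and outside the element only Kcna4 stays at or above the dashed 2-fold line.

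Transcript starts inside the long genes were looked at one by one, since the annotated 5' end is only 1 of several. The start of Tmem132c-202, next to the element, had 21 young and 382 aged fragments, a log2 ratio of 4.53 (3.96 to 5.30), most of them those of the element itself. The starts of Tmem132c-203 and Tmem132c-205, further into the gene, had 2 and 4 and 2 and 7 fragments. At Rbfox3, the start shared by the coding transcripts Rbfox3-204 and Rbfox3-205 had 180 young and 161 aged fragments, a log2 ratio of 0.25 (-0.071 to 0.56), and Rbfox3-203, which begins where RefSeq places its promoter window, had 8 fragments at each age. The start of Rbfox3 transcripts nearest to the element, that of Rbfox3-209, had 95 young and 85 aged fragments (0.25, -0.19 to 0.68), with the element at -34339 bp from it. The intervals of all 9 Rbfox3 starts except Rbfox3-208 (73 and 85 fragments, a ratio of 0.62, 0.16 to 1.1) included 0.

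Over the whole of each locus, the gene with 150000 bp on either side, 1 bin at the element stood above the rest at all 3 genes, on ground that differed between them. In bins of 500 bp, the bin with the highest gain rose by 15 FPM at Kcna4, 13.5 FPM at Tmem132c and 18.1 FPM at Rbfox3, which was 3.21, 3.66 and 2.55 times the gain of the next bin. The next bins were the promoter of Kcna4 (120 and 213 fragments), a bin at -6.06 kb from the 5' end of Tmem132c (173 and 227 fragments), and a bin 163 kb into Rbfox3 (684 and 702 fragments). The bin with the largest loss fell by 0.249 FPM at Kcna4, where falls were small, fell by 2.24 FPM at Tmem132c and fell by 5.17 FPM at Rbfox3.

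**Figure D3:**
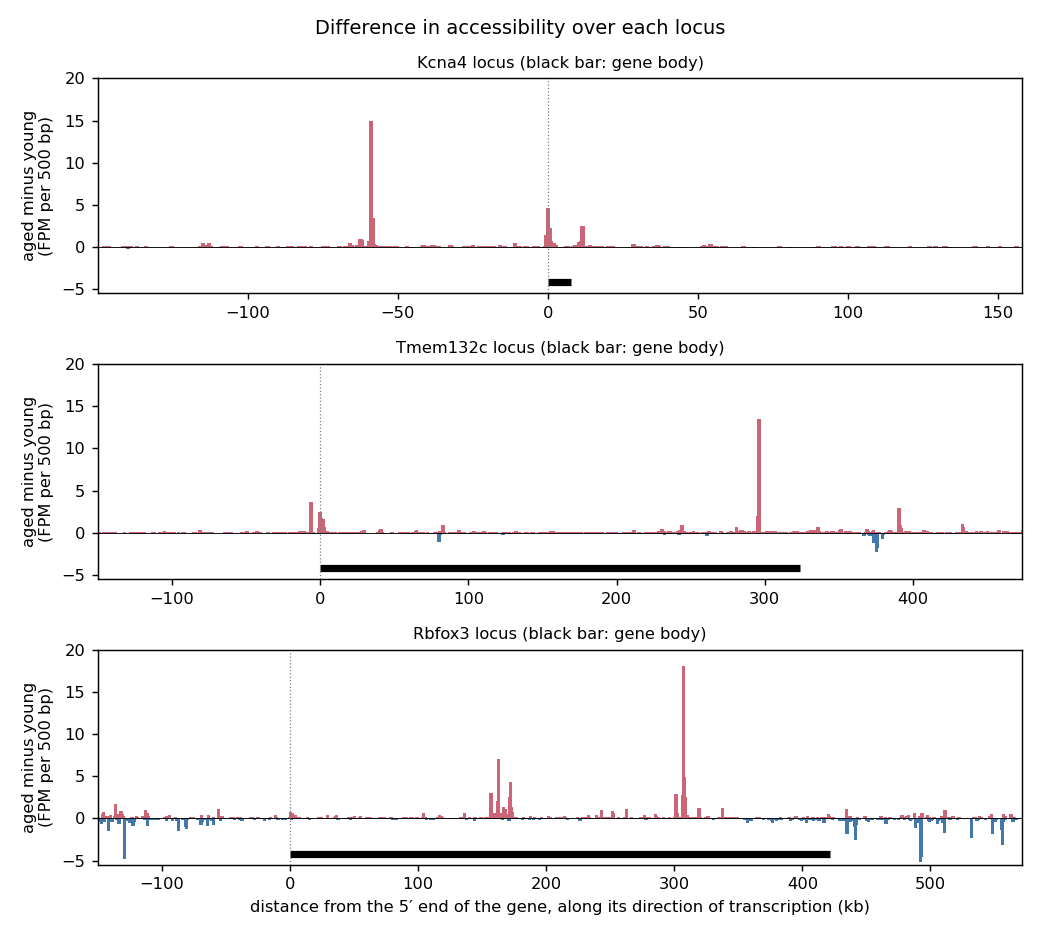
Difference in FPM, aged minus young, in each bin of 500 bp (bars, drawn wider than the bin so that they can be seen) against the distance from the 5' end of the gene in the direction of transcription. The black bar is the gene body, red bars are gains and blue bars losses. At each locus 1 bin stands above the rest, upstream of Kcna4 and inside Tmem132c and Rbfox3, at 13.5 to 18.1 FPM.

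Beyond the leading bin, the number of bins past 2-fold differed between the loci. Of the bins with at least 20 fragments, 13 of 16 lay at or above 2-fold at Kcna4 (81.3%) and none at or below one part in 2. At Tmem132c this was 7 of 107 (6.54%), with 4 bins at or below one part in 2, and at Rbfox3 26 of 402 (6.47%), with 6. In the genome 6.64% of 634038 tested bins lay at or above 2-fold and 3.04% at or below one part in 2, and nothing is read from these shares since the genes were chosen on the same contrast. By peaks, 4 of 6 tested at the Kcna4 locus, 6 of 36 at Tmem132c and 11 of 95 at Rbfox3 lay at or above 2-fold, against 7.96% of 163076 tested peaks, and 0, 0 and 1 at or below one part in 2, against 3.76%. The median log2 ratio of the other peaks at each locus was 1.18, 0.29 and -0.015.

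At Kcna4 the other peaks past 2-fold were that on the promoter (129 young and 222 aged fragments, log2 ratio 1.18), one 735 bp into the gene (34 and 78, 1.58) and one 11509 bp downstream of the 5' end (24 and 85, 2.19). At Tmem132c a single peak with at least 100 fragments other than the element passed 2-fold, 137782 bp from it (42 and 66 fragments, 1.05). At Rbfox3 there were 3 such peaks. One was next to the element, at -755 bp along the reference (101 and 196 fragments, 1.36), one at 5878 bp (2.45 and 5.77 FPM, 1.23), and one at 150472 bp (86 and 142, 1.12).

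Measured outward from the centre of the element, the difference fell steeply within the first kilobases but not to the same level. At Kcna4 the ring from 0.5 to 1 kb had 1 young and 17 aged fragments, from 5 to 10 kb 10 and 48 (log2 ratio 2.56, 1.67 to 3.82), and from 100 to 150 kb still 167 and 278 (1.14, 0.86 to 1.43). The Tmem132c rings fell from 376 aged and 19 young fragments within 0.25 kb to 12 and 4 from 1 to 2.5 kb, to a ratio of 0.22 (0.029 to 0.41) from 25 to 50 kb and 0.028 (-0.042 to 0.098, 3819 young and 2938 aged fragments) from 50 to 100 kb, and were at 0.51 (0.30 to 0.71) again from 100 to 150 kb. At Rbfox3 the ring from 5 to 10 kb had 161 young and 253 aged fragments (1.05, 0.77 to 1.35), and from 50 to 100 kb the ratio was 0.025 (-0.082 to 0.13), and from 100 to 150 kb 0.11 (0.055 to 0.16). The level of aged fragments within 0.25 kb was 31.9 FPM per kb at Kcna4, 28.7 at Tmem132c and 38.6 at Rbfox3, and in the ring from 10 to 25 kb it was 0.0968, 0.268 and 0.452 FPM per kb.

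The element held 38.1% of the net gain of the Kcna4 locus (16.0 of 42.1 FPM), 29.4% at Tmem132c (13.9 of 47.3 FPM) and 67.5% at Rbfox3 (19.5 of 28.9 FPM). The share at Rbfox3 is loosely set, with an interval of 32.6 to 102%, and it was 219% with scaling to all unique fragments and 30.7% with flanks of 50 kb. With short fragments only, the share was 51.8% at Tmem132c. Set against the sum of the gaining bins alone, leaving out losses, the element held 27.0% at Kcna4, 14.4% at Tmem132c and 11.9% at Rbfox3. That sum took in every bin that rose, without a minimum of fragments. It therefore also added up counting error, over loci of 617, 1249 and 1445 bins in turn. The order of the loci differed between the measures, and the loci cannot be ranked by this one. Without the element, the locus had 767 young and 1260 aged fragments at Kcna4 (log2 ratio 1.12, 0.99 to 1.25), 6690 and 5922 at Tmem132c (0.23, 0.18 to 0.28), and 29741 and 22689 at Rbfox3 (0.016, -0.0093 to 0.041). At Rbfox3 this value near 0 joined a gene body that was higher in aged HSCs, at 0.33 without the element, with flanks that were lower, at -0.11 (-0.15 to -0.069) on the left and -0.083 (-0.13 to -0.039) on the right. At Kcna4 both flanks were higher, at 1.77 (1.61 to 1.94) on the left, with the element, and 1.05 (0.82 to 1.28) on the right.

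The wider rise at Kcna4 was also seen in fragments outside peaks, which were 482 in young and 800 in aged HSCs, or 13.9 and 30.6 FPM (log2 ratio 1.14, 0.97 to 1.30). The same windows around 21633 genes had a median ratio of 0.038 for fragments outside peaks, and Kcna4 stood at percentile 99.8. Tmem132c, with 2744 and 2513 fragments (0.28, 0.20 to 0.36), was at percentile 87.0, and Rbfox3, with 8897 and 7016 (0.064, 0.018 to 0.11), at 57.8. Kcna4 and Tmem132c lie in poorly accessible parts of the genome, with 7.98 and 20.8 fragments per kb over both libraries (percentiles 11.3 and 19.5), against 73.4 at Rbfox3 (percentile 59.5). In steps of 100 kb, the rise around the Kcna4 element took in 3 windows, at log2 ratios of 1.12, 1.46 and 1.39, and the 17 other windows within 1 Mb ran from 0.086 to 0.82 with a median of 0.38. Around Tmem132c 2 of 20 windows reached 2-fold, centred at -750 and -850 kb. The 20 windows there ran from 0.074 to 1.26 with a median of 0.51, above that of the 17 other Kcna4 windows. Around Rbfox3 none reached 2-fold, and the median was -0.034. The share of such windows at 2-fold over the genome was not counted, so nothing is read from these counts of windows.

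**Figure D4:**
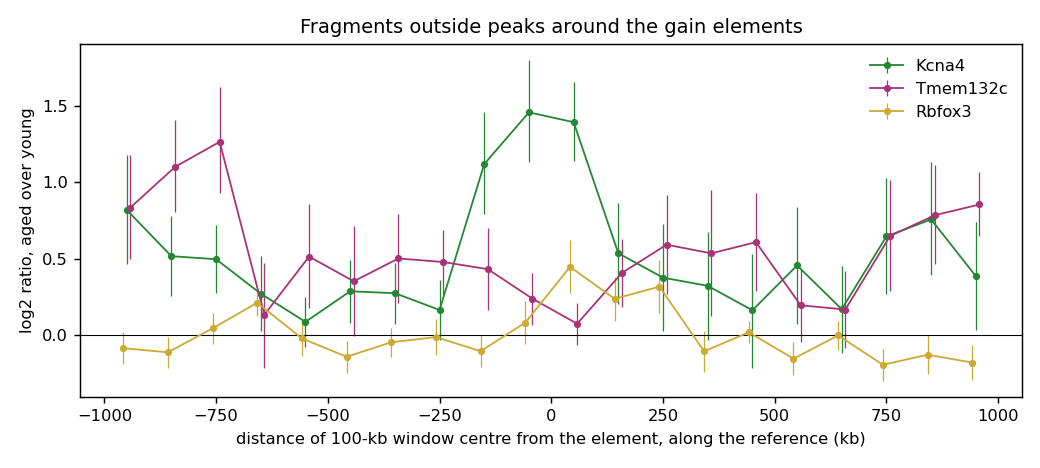
Log2 ratio of aged over young fragments outside peaks, in windows of 100 kb up to 1 Mb on either side of each gain element along the reference, with 95% counting intervals. The windows centred 50 kb to either side of the element stand at 1.46 and 1.39 around Kcna4, where the one at -150 kb stands at 1.12, and at 0.074 to 0.45 around Tmem132c and Rbfox3, where the one at -150 kb from the Rbfox3 element stands at -0.11.

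Promoters of neighbouring protein-coding genes stayed under 2-fold, though those next to Tmem132c were higher in aged HSCs by about as much as its own promoter, at 0.67. No other such gene had its promoter in the Kcna4 window. Next to Tmem132c, Glt1d1, which encodes a putative glycosyltransferase, had 372 young and 402 aged fragments (log2 ratio 0.52, 0.31 to 0.73), and Slc15a4, which encodes a lysosomal transporter of histidine and peptides, had 373 and 416 (0.56, 0.36 to 0.77). Their starts lie 94565 and 95200 bp from the element, so the promoter windows overlap and share fragments, and they are not separate cases. Near Rbfox3, Engase, a cytosolic enzyme that releases N-glycans, had 1276 and 933 fragments (-0.045, -0.17 to 0.077), C1qtnf1, a secreted C1q-like protein, 320 and 247 (0.034), and Cant1, a calcium-activated nucleotidase, 1937 and 1257 (-0.22, -0.32 to -0.11). Lgals3bp, a secreted glycoprotein that binds galectins, had a ratio of 0.015, Timp2, an inhibitor of matrix metalloproteinases, one of -0.21, and Cep295nl, with only 22 and 19 fragments, one of 0.20 (-0.77 to 1.15). None of these 8 promoters reached 2-fold. Only 2.09% of all tested promoters did, so a count of none among so few is uninformative, and nothing is read from it. Further from the Rbfox3 element, the promoters of Enpp7 (17 and 20 fragments, 0.63, -0.37 to 1.66), Cbx2 (-0.056) and Cbx8 (-0.16) were also under 2-fold.

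Related genes showed how far the change was shared. Among 11 Shaker-type channel genes, 10 promoters were tested, 3 lay at or above 2-fold (Kcna4, Kcna5 and Kcna6) and none at or below one part in 2, against the 2.09% and 0.678% of all promoters, and the median log2 ratio was 0.26. Kcna5, a delayed-rectifier channel of heart and muscle, had 105 young and 171 aged fragments (1.1, 0.75 to 1.47), and Kcna6 180 and 288 (1.08, 0.81 to 1.36). These genes lie side by side with Kcna1 in 1 cluster, so they are not separate cases, and Kcna4 itself was chosen for its gain, which leaves 2 of 9 others. At the low end Kcna2, a channel of axons, had 246 and 160 fragments (-0.21), and Kcna3, the main Shaker-type channel of T cells, 726 and 476 (-0.20).

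Beside the 2.09% of all promoters at or above 2-fold, 1 of 5 in the TMEM132 family passed it, that of Tmem132d (11 young and 38 aged fragments, log2 ratio 2.11, with an interval up to 3.31), and Tmem132e had 292 and 307 fragments (0.48). At the low end were Tmem132a (540 and 394, -0.048) and Tmem132b (586 and 415, -0.091). Over the gene body the order differed, since Tmem132b had 2278 and 2784 fragments (0.70, 0.62 to 0.78), above the 0.46 of Tmem132c. Of the 3 RBFOX genes, which encode related splicing regulators, none passed 2-fold. Rbfox1 had 28 and 26 fragments (0.30) and Rbfox2, the member used widely outside neurons, 1546 and 1124 (-0.053). The body of Rbfox1 had 6680 and 8426 fragments (0.74, 0.69 to 0.79), also above the 0.43 of Rbfox3. Among 12 other neuronal RNA-binding genes 2 promoters passed 2-fold and none lay at or below one part in 2, and the median was 0.057. They were Khdrbs2, a STAR-family splicing regulator (133 and 351 fragments, 1.80, 1.51 to 2.11), and Elavl2, which binds AU-rich RNA (24 and 41, 1.15, 0.42 to 1.97). The lowest were Celf3 (4.24 and 2.87 FPM, -0.56) and Celf5 (474 and 312, -0.20), both of the CELF family of splicing regulators.

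By the pair of promoter and gene body ratios, over 17537 genes, the genes nearest to Kcna4 were Xirp2, an actin-binding protein of muscle (at a distance of 0.031 in log2 units), Olfr525, an olfactory receptor (0.063), and Csn3, a milk casein (0.095). Those nearest to Tmem132c were Tnr (0.012), Gm15217 (0.024) and C1qtnf7 (0.024), and those nearest to Rbfox3 were Slc16a12 (0.00028), Ccdc160 (0.0040) and Fat1 (0.0053). Both readouts come from the same 2 libraries, so this is a description.

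The last question was which aged cells held the gain. A fragment in the Kcna4 element was found in 374 of 3405 aged cells, 11.0% (9.95 to 12.1%), and in 6 of 4887 young cells, 0.123% (0.045 to 0.27%). For the Tmem132c element it was 341 aged cells, 10.0% (9.03 to 11.1%), and 19 young cells, 0.389% (0.23 to 0.61%), and for the Rbfox3 element 460 aged cells, 13.5% (12.4 to 14.7%), and 37 young cells, 0.757% (0.53 to 1.04%). After thinning to 3000 in-peak fragments, which left out 98 young and 134 aged cells, the aged shares were 4.16% (3.50 to 4.90%), 3.94% (3.30 to 4.67%) and 5.78% (5.0 to 6.63%) and the young shares 0.0209%, 0.209% and 0.334%. Since 1 cell has at most a few fragments at a site, a share counts cells in which the site was sampled and not cells in which it was open.

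Deeper cells were more often sampled. In the shallowest quartile of aged cells 6.34% had a Kcna4 element fragment, 5.05% a Tmem132c and 7.63% an Rbfox3 element fragment, and in the deepest 15.7%, 15.9% and 17.9%. More cells had 2 or more fragments than a rate proportional to depth would give, 44 against 27.6 at Kcna4, 34 against 22.2 at Tmem132c and 70 against 43.6 at Rbfox3. These expected numbers take the fragments of a cell as independent, and marked doublets were kept. No other peak was counted in this way, so whether the excess is particular to the elements was not tested.

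Any of the 3 elements was seen in 1027 aged cells, 30.2% (28.6 to 31.7%), and in 60 young cells, 1.23% (0.938 to 1.58%). Pairs of elements were counted in the same aged cells and set against the number that depth alone would give. Kcna4 and Tmem132c were both seen in 34 aged cells, where 42.9 were expected if each fell independently at a rate set by depth, a ratio of 0.79 (0.55 to 1.11). Kcna4 and Rbfox3 were both seen in 64 cells against 57.7, a ratio of 1.11 (0.85 to 1.42), and Tmem132c and Rbfox3 in 54 against 52.6, a ratio of 1.03 (0.77 to 1.34). All 3 were seen in 4 cells against 7.33 (0.55, 0.15 to 1.40), and exactly 2 in 140 against 131 (1.07, 0.90 to 1.26). Each interval included 1, and for the pairs the intervals reach up to 1.11, 1.42 and 1.34 times the expected number. After thinning to 3000 in-peak fragments the ratio was 0.64 (0.21 to 1.48) for Kcna4 with Rbfox3 and 0.54 (0.15 to 1.37) for Tmem132c with Rbfox3, below 1 rather than above it. For Kcna4 with Tmem132c it went up instead, from 0.79 to 0.93 (0.30 to 2.18). Thinning left few cells with both elements, and each of these intervals was wide and included 1. In young HSCs 2 cells held 2 elements, where 0.236 were expected (8.46, 1.02 to 30.6), and 1 of these was marked as a doublet.

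Barcodes that may hold a pair of cells bear on these counts. Doublets were marked from overlapping fragments, 4.36% of young and 6.70% of aged cells. Marked cells had a median depth of 12062 (young) and 13966.5 (aged) in-peak fragments, while unmarked cells had 6841 and 7272. Aged cells with an element fragment were deeper too, with medians of 8446.5 for Kcna4, 8539 for Tmem132c and 8468.5 for Rbfox3. Aged cells without one had medians of 7407, 7390.5 and 7359 in turn. Marked cells made up 3 of the 6 young cells with a Kcna4 element fragment, 3 of 19 for Tmem132c and 5 of 37 for Rbfox3, and in aged HSCs 9.36%, 8.80% and 9.57%. Without them the element log2 ratios were 7.04 (5.90 to 9.74), 4.82 (4.19 to 5.73) and 4.23 (3.77 to 4.81), and the pair ratios were 0.72, 1.17 and 1.03. The unmarked young cells held 3, 16 and 35 element fragments, so the first of these ratios rests on 3 young fragments. The part of doublets in the gains was not tested, and neither was the part of depth in the shares of marked cells.

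The element and the promoter of the same gene were also not seen together more often than depth would give, beyond counting error. In aged HSCs the numbers were 40 cells against 36.1 for Kcna4 (1.11, 0.79 to 1.51), 45 against 36.5 for Tmem132c (1.23, 0.90 to 1.65) and 5 against 8.54 for Rbfox3 (0.59, 0.19 to 1.37). With any fragment of the rest of its own locus, the Kcna4 element was seen in 1.19 times the expected number of cells (1.01 to 1.40). The Tmem132c element was seen in 281 against 277 (1.02) and the Rbfox3 element in 457 against 457 (1.0). The rest of the locus held a fragment in 994, 2593 and 3367 of the 3405 aged cells in turn. At Rbfox3 nearly all cells had one, so its ratio could hardly rise above 1, and these ratios cannot be compared between the loci. With the peaks of rank 3, 4, 6 and 7, each element had a median ratio of 1.19 for Kcna4, 1.27 for Tmem132c and 1.28 for Rbfox3, and the 6 pairs among those peaks ran from 1.06 to 1.63. Each of the 3 elements was set against these 4 peaks, and some of the intervals lay above 1. They were those of Tmem132c with rank 7 (1.47, 1.06 to 1.99), Rbfox3 with rank 3 (1.36, 1.05 to 1.72) and Rbfox3 with rank 7 (1.38, 1.04 to 1.81). Of the 6 pairs among the peaks, 3 had such intervals. With the promoters of the 12 HSC markers the medians were 0.89, 1.03 and 1.0, and for the Kcna4 element 1 of the 12 ratios was above 1. Here 2 intervals lay below 1, those of Kcna4 with Procr (0.68, 0.47 to 0.94) and Tmem132c with Tal1 (0.80, 0.65 to 0.98).

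Gains at other loci were somewhat more frequent in the cells that held an element fragment. The 1238 other peaks with at least 200 fragments and at least 2-fold in aged HSCs, outside these 3 loci, held 0.399% of in-peak fragments in young and 1.07% in aged HSCs. In aged cells with an element fragment they held 1.17% for Kcna4, 1.2% for Tmem132c and 1.15% for Rbfox3, and in cells without one 1.06%, 1.05% and 1.06%. From the lowest to the highest quartile of aged cells by that share, cells with a Kcna4 element fragment rose from 4.69% (3.37 to 6.34%) to 15.2% (12.8 to 17.7%), those with a Tmem132c element fragment from 2.70% (1.72 to 4.02%) to 15.2% (12.8 to 17.7%), and those with an Rbfox3 element fragment from 8.10% (6.36 to 10.1%) to 18.0% (15.5 to 20.7%). The median depth was 7381 in-peak fragments in the lowest and 7133 in the highest quartile. The other peaks were themselves chosen as higher in the aged library, so the order of the quartiles is a description of this library.

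**Figure D5:**
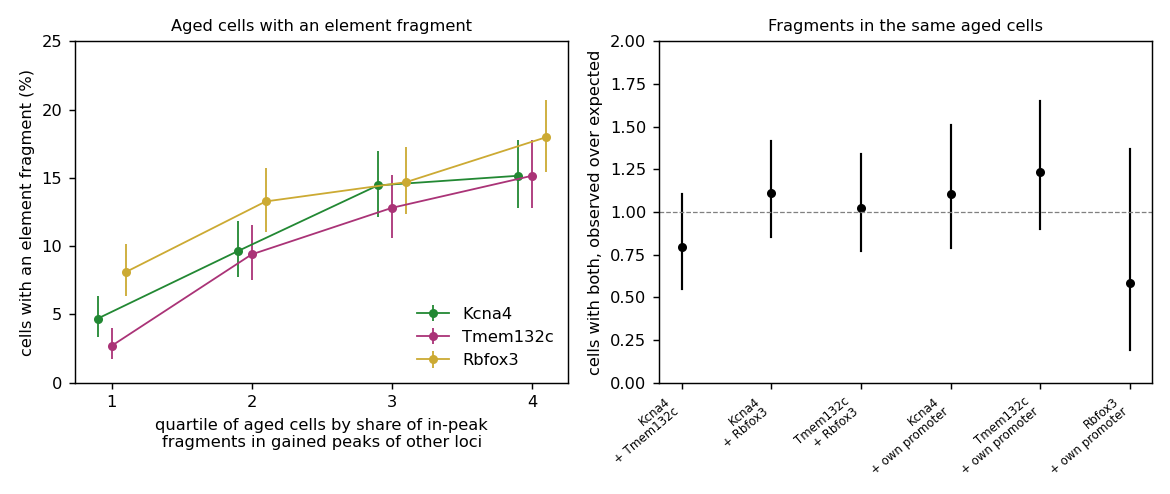
Left, the percentage of aged cells with a fragment in each gain element, by quartile of aged cells ordered by the share of their in-peak fragments in gained peaks of other loci. Right, the number of aged cells with fragments in both of 2 regions over the number expected from depth, with 1 marked by the dashed line, and bars on both sides are 95% counting intervals. The shares rise from 2.70 to 8.10% in the first quartile to 15.2 to 18.0% in the last, and the 6 ratios plotted have intervals that include 1, unlike some ratios with other gained peaks that are not plotted.

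Markers of cell type were compared between aged cells with and without an element fragment. Over 7 lists of markers and 3 elements, the log2 ratio of summed promoter levels between cells with and without a fragment ran from -0.71 to 0.60, and 17 of 21 intervals included 0. HSC markers stood at 263 FPM in cells with a Kcna4 element fragment and 286 FPM in the others (-0.12, -0.22 to -0.016), and at 281 and 284 FPM for Tmem132c and 283 and 284 FPM for Rbfox3. Neuronal markers stood at 123 and 120 FPM (0.029, -0.13 to 0.18), 119 and 121 FPM (-0.018), and 120 and 121 FPM (-0.014) in turn. The intervals without 0 were those of HSC and erythroid markers at Kcna4 (-0.33, -0.62 to -0.067), granulocyte-monocyte markers at Tmem132c (30 fragments in cells with the element, -0.71) and T cell markers at Rbfox3 (37 fragments, 0.60, 0.0073 to 1.1).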

How the data were processed

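The members, gene lists and regions were chosen with earlier results of these data known. The inputs were the fragment list and the barcode table of each library. Per the labels and the methods, the authors processed the reads with Cell Ranger ATAC and Signac on mm10. The deposited tables hold counts per barcode, read pairs or unique fragments without normalization, with 53786133 unique fragments (young) and 48333115 (aged). All 239185 young and 217516 aged barcodes had as many listed fragments as their table entry. Coordinates were used with GRCm38 and GENCODE M21, and no fragment lay beyond a chromosome end.

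Peaks were called here, not by the authors, from cut sites of kept cells. A 151 bp window was set against the genome mean or the mean of 10000 bp around it, whichever was higher (Poisson, q under 0.001). Windows closer than 50 bp were joined, segments under 100 bp were dropped, and both libraries were then combined. Fragments were assigned to a region by their ends and never more than once per region. Ratios are log2 of aged over young levels, scaled by in-peak fragments after 1 fragment was added to each count, and were read for features with at least 20 fragments. Intervals are exact binomial for shares and ratios and exact Poisson for numbers of cells, and a normal approximation was used for the share of net gain. Expected numbers of cells came from a Poisson rate proportional to the in-peak fragments of each cell, scaled to the observed number of cells with a fragment. Cells with 3 or more overlapping fragments at more places than the library mean gives (Poisson, q under 0.01) were marked as doublets (213 young, 228 aged) and kept. The sequence of the Rbfox3 element is not reported here. Peak calling, ratios and expected numbers were tested on simulated data. Other peaks of a locus were named from 100 fragments and 2-fold, neighbours by distance up to 6 a locus, and of each gene list the members with the highest and lowest promoter ratio. Python 3.11.15, NumPy 2.4.6, SciPy 1.17.1, pysam 0.24.0, samtools 1.23.1 and BLAST+ 2.17.0 were used.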

Additional observations from a re-analysis of the deposited data

Results flagged for a closer look

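Barcodes of the aged library outside the cells analysed also held fragments in the elements, above the level of the kept young cells. In the aged library, 289 barcodes called as cells but outside the limits on depth had 11.5 FPM in the Kcna4 element (34 fragments), 17.2 FPM in the Tmem132c element (51) and 16.9 FPM in the Rbfox3 element (50). The 213822 aged barcodes not called as cells had 16.1 FPM (25 fragments), 12.9 FPM (20) and 20.6 FPM (32), close to the 16.2, 14.4 and 20.7 FPM of the kept aged cells. The 141 young barcodes called as cells but outside the limits had 0, 0 and 2 fragments among 499782 in-peak fragments, and for Rbfox3 this is 4.0 FPM with an interval of 0.48 to 14.5 FPM that overlaps that of the same class of aged barcodes (12.5 to 22.3 FPM). The 234157 young barcodes not called as cells had 0, 0 and 2 fragments among 1556960 in-peak fragments. What these barcodes hold was not tested.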

How the results depend on the processing

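Leaving out ranks and background shares, which are given at the end, 143 values were recomputed under other settings, and 132 stayed within the counting interval of the reported value, and no log2 ratio changed sign. Some of the 132 could hardly have moved. Counting overlapping fragments left every value as it was, and the Kcna4 body does not hold the element that was left out. The interval of the Rbfox3 promoter left out 0 with the other windows and with all transcript starts. The element ratios stayed within the counting interval of the reported value under all 30 settings, from 6.30 to 7.04 at Kcna4, 4.18 to 4.82 at Tmem132c and 4.05 to 4.43 at Rbfox3. Thinning to 3000 in-peak fragments took the promoter ratio of Kcna4 to 0.85, under 2-fold, where the cause was not tested. It also took the ratio of observed to expected cells to 0.64 for Kcna4 with Rbfox3 and 0.54 for Tmem132c with Rbfox3, from just over 1 to under it, each with an interval that included 1. For Kcna4 with Tmem132c the ratio went up, from 0.79 to 0.93 (0.30 to 2.18). Counting any annotated transcript start gave a promoter ratio of 1.65 at Tmem132c, since 1 of these starts lies next to the element. Leaving out the element gave gene body ratios of 0.27 at Tmem132c and 0.33 at Rbfox3. With only fragments shorter than a nucleosome the gene body ratio of Rbfox3 was 0.53 and the share of net gain 53.0% at Kcna4 and 51.8% at Tmem132c. The share of net gain at Rbfox3 was 219% with scaling to all unique fragments, which leaves little net gain in the locus, and 30.7% with flanks of 50 kb. That flank could not be used at Kcna4, whose element lies beyond it. The ranks with at least 50 fragments were 4, 26 and 60. The share of features at or above 2-fold ran from 1.54 to 4.07% for promoters, 0.808 to 2.33% for gene bodies, 4.34 to 13.1% for bins and 5.37 to 8.56% for peaks as the minimum of fragments was changed. No paired analysis was possible because each age has 1 library, and for the same reason no replicate could be left out. The single library per age limits what can be said about age.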

Other observations

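Stretches with no cut site in one library and at least 200 in the other were looked for on all chromosomes except Y, and 2 were found, both empty in young cells. On chromosome 13, chr13:100270501-100350500 (80000 bp) held 702 cut sites in aged cells and none in young cells. It covers Naip6, an inflammasome receptor gene with near-identical copies beside it, whose reads are uncertain. On chromosome 9, chr9:70079501-70081500 (2000 bp) held 203 cut sites in aged cells and none in young cells. Whether the mice of the libraries differ in sequence, there or at the gain elements, was not tested. The gain elements held 6, 19 and 41 young fragments, of which 3, 3 and 6 were in cells marked as doublets.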
